A study of Mus musculus with 12 samples.

Results

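Adipose vascular anomalies titled fat were compared with normal adipose tissue titled fat, the comparison in which the site word of the titles is the same in both groups. The anomalies are 2 libraries, 18f and M278, and the controls are 4 libraries, F539, M5, M602 and M2, so that 6 of the 12 libraries of the series enter. All are C57BL/6 mice, and tissue is labelled adipose throughout. The genotype of the anomaly animals is VEC-Cre;SB Transposase; onc3, and that of the control animals is SB Transposase; onc3. VEC-Cre is a Cre recombinase under the promoter of Cdh5, the gene of VE-cadherin, which endothelial cells use to hold on to each other. The transposase and the onc3 transposon form the Sleeping Beauty system, in which mobile DNA jumps and can disrupt or activate genes, and the controls carry both without Cre. The question named in the title of the series is which genes take part in vascular anomalies after mutagenesis of the endothelium. Each library is 1 animal, ages are not given, and the labels do not say from which fat pad a library titled fat was taken. With 2 animals on one side, both anomaly values are given for many genes and read separately. For the other genes only the difference of the group means is given, which can hide a split between 18f and M278.

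A vascular anomaly is a malformed, vessel-rich lesion. Adipose tissue holds fat cells that store triglyceride, a dense capillary bed, progenitor cells around the vessels, and resident macrophages that take up lipid and dead cells. Fat pads keep the position code of the body region in which they formed, read from Hox genes and other patterning factors, and pads inside the abdomen are covered by mesothelium, a sheet of flat epithelial cells that subcutaneous pads lack.

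Levels are log2 CPM as deposited (reads of a gene, normalized and scaled to library size), where a step of 1 is a doubling, and are not divided by gene length. Recovered reads numbered 29763059 in 18f, 12667533 in M278 and between 10337258 (F539) and 33980694 (M2) in the controls, and 3 reads were worth between 0.0921 and 0.267 CPM. The 10 most abundant genes took 6.76% of the reads in 18f and 6.36% in M278, and from 12.2% to 18.5% in the controls. Fat cell genes were abundant in all 6 libraries, with Adipoq, the gene of the hormone adiponectin, at 10.12 in 18f, 8.51 in M278 and 10.55 to 12.23 in the controls. Control F539 stood apart from the other controls: its keratinocyte and hair follicle list summed to 1850 CPM against 33.9 to 52 in the other controls, 89.1 in 18f and 23.8 in M278. The X-inactivation gene Xist was at 9.23 in 18f and 9.38 in F539, and at 1.33 or less in the other 4 libraries, so each group has libraries of both kinds. Because whole tissue was sequenced, fewer cells of a type and less RNA per cell cannot be told apart.

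Of the 12735 genes whose mean level reached 1 log2 CPM, 822 were higher in the anomalies (6.45%) and 696 lower (5.47%) with limma at an adjusted p under 0.05, and the median difference over all genes was -0.07. In all 822 and all 696, both anomalies lay outside the range of the 4 controls. Over all genes tested, both lay above every control in 2407 (18.9%) and below every control in 2747 (21.6%), while in 482 18f lay above and M278 below them and in 429 the reverse held. With M278 within the controls, 18f lay above them in 1001 genes and below them in 646. With 18f within the controls, M278 lay above them in 1022 and below them in 1825. Counts of list members outside the controls in 1 anomaly are to be read beside these. Among the genes called lower, the median distance from the control mean was -1.45 in 18f and -2.01 in M278, and M278 lay further away in 555 of 696. Among those called higher it was 1.85 in both. These counts depend on single libraries: without control M2 there were 1 higher and 5 lower (2920 genes at an unadjusted p under 0.05), without M602 200 and 99, without M278 191 and 167, without M5 459 and 262, and without F539 1048 and 1381. With all 11 animals of the series in 3 groups, which gives the test more animals to estimate the spread, 876 were higher and 580 lower, and without M2 in that fit 381 and 187. Scaled by library totals in place of the deposited normalization, which moved the median difference over all genes to 0.26, 1515 were higher (73.7% of the calls, against 54.2%) and 542 lower. Of the genes named by rule, 99 were past the threshold, and without M2 Timp1 alone among them stayed past it. Genes given by their values beyond those named by rule were chosen after their values were seen. The p-values measure the spread between these animals.

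**Figure D1:**
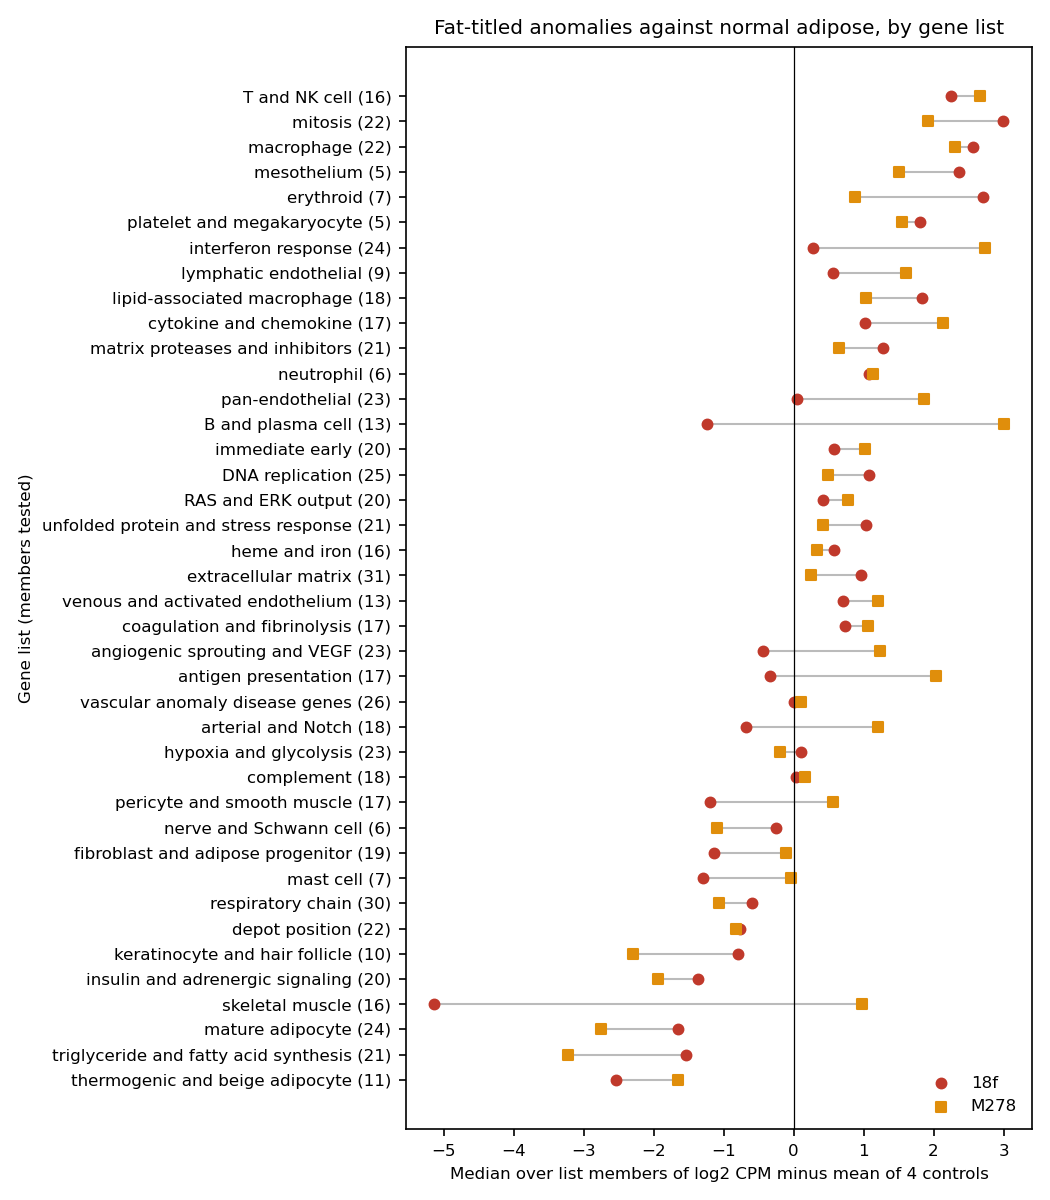
For each gene list with at least 5 members tested (number in parentheses), the median over members of log2 CPM minus the mean of the 4 controls, with 18f as a circle and M278 as a square. Mitosis, macrophage and T cell genes lie to the right and fat cell genes to the left in both anomalies, whereas endothelial, interferon, B cell and muscle genes lie apart, with muscle at -5.13 in 18f and 0.98 in M278.

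Genes of dividing cells were higher in both lesions. Of 22 mitosis genes tested, 21 rose and 0 fell (median difference 2.43, against -0.07 over all genes), and all 22 stood above every control in both 18f and M278. All 22 were also higher in 18f than in M278, at medians of 2.99 and 1.92 above the control mean. Top2a, the topoisomerase that untangles chromosomes (chromosome 11, 98992943 to 99024189 on GRCm38), was at 6.27 in 18f and 5.27 in M278, and at 3.09, 3.35, 2.36 and 2.85 in F539, M5, M602 and M2. The groups did not overlap, and the difference was 2.86 ± 0.38 (SE, limma adjusted p = 0.0151), or 7.25-fold. Mki67, the proliferation marker (chromosome 7, 135689784 to 135716361), was at 6.86 and 5.64 in the anomalies and at 3.76, 3.87, 3.06 and 3.37 in the controls. It rose by 2.74 ± 0.40 (adjusted p = 0.0163). Cdk1, the kinase that starts mitosis, rose by 2.35 ± 0.37 (adjusted p = 0.0184), from 1.51 to 2.58 in the controls to 4.71 and 4.14. Aurka, a spindle kinase, was the 1 mitosis gene tested that did not pass, at 1.16 (adjusted p = 0.0860). Among 25 DNA replication genes 8 rose and 0 fell (median 0.79), and all 25 were higher in 18f than in M278. The helicase subunit gene Mcm5 rose by 2.08 ± 0.29 (adjusted p = 0.0157) and Mcm3 by 1.60 ± 0.25 (adjusted p = 0.0181), while Cdc45, which works with the same helicase, was at -0.23 (adjusted p = 0.773). Leaving out 1 library gave between 0 (without M2) and 20 (without F539) mitosis genes past the threshold, with 6 without 18f and 2 without M602, and between 0 (without M2) and 8 (without F539) replication genes.

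The promoters of the mitosis genes are shown because many of them share a short element. The cell cycle genes homology region, TTTGAA, is a promoter element known from genes expressed late in the cell cycle. On either strand, it was found in 15 of 20 mitosis promoters that matched RefSeq (75.0%), in 3 of 20 DNA replication promoters (15.0%), and in 11.6% of the promoters of the genes tested, or 18.1% of all promoters. Each window runs from 250 bases before to 50 bases after the start of the gene, and a match is a run of letters and not a binding site. The 3 windows (RefSeq, GRCm38.p6, minus strand) belong to the mitosis genes named by rule, and capitals mark the element, which reads TTCAAA where it lies on the opposite strand.
Top2a promoter, chr11:99024140-99024439: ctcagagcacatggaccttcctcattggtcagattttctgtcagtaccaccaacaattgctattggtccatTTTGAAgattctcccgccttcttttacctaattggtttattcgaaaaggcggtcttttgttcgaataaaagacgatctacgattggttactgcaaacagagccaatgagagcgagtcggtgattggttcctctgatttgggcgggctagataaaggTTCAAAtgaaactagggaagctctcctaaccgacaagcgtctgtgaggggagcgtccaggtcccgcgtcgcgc
Mki67 promoter, chr7:135716330-135716629: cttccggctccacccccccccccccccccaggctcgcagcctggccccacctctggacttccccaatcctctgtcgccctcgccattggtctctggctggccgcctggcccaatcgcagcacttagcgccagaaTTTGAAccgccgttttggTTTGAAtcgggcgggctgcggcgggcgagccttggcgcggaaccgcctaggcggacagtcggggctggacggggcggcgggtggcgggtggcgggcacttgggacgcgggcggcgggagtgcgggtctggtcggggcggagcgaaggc
Cdk1 promoter, chr10:69352863-69353162: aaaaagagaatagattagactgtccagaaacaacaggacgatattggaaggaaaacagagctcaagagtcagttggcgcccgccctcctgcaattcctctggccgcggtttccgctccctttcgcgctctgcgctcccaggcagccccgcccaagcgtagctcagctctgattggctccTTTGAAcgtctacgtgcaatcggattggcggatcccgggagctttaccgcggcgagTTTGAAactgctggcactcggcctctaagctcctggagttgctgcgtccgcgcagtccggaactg

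Most macrophage genes tested rose, with medians of 2.56 above the control mean in 18f and 2.30 in M278. Of 22 macrophage genes 13 rose and 0 fell (median difference 2.29), and 17 lay above every control in both. Marco, a scavenger receptor (chromosome 1, 120474538 to 120505024), was at 8.16 in 18f, 6.29 in M278, and 0.42, 1.88, 1.33 and 0.27 in F539, M5, M602 and M2. Its rise was 6.25 ± 0.68 (adjusted p = 0.0124), and both anomalies stood far above the controls. Cd5l, which macrophages secrete to protect themselves from lipid-induced death, was at 5.12 and 6.71 in the anomalies and at 0.60, 0.05, -1.45 and -1.22 in the controls, a rise of 6.42 ± 0.76 (adjusted p = 0.0141). The classical complement starter genes C1qa, C1qb and C1qc rose by 2.28 to 2.61, and Siglec1, a sialic acid receptor, by 2.58 ± 0.30 (adjusted p = 0.0137). The resident macrophage genes did not all follow. Lyve1 and Folr2 were at 8.18 and 5.09 in 18f and at 3.69 and 2.15 in M278, which lies within the controls, and Cd163, the receptor that clears hemoglobin, was at 8.80 in 18f and 5.25 in M278 with controls at 5.02 to 6.52. These 3 genes did not pass (adjusted p from 0.386 to 0.397).

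In the list of lipid-associated macrophage genes, which marks macrophages that feed on fat, 7 of 18 rose and 0 fell (median 1.35). Gpnmb, a glycoprotein of lysosomes, was at 11.24 and 10.31 in the anomalies and at 4.71, 7.14, 4.50 and 6.92 in F539, M5, M602 and M2. It rose by 4.96 ± 0.89 (adjusted p = 0.0241), and the lipid receptor gene Trem2 by 4.22 (adjusted p = 0.0356). Lgals3, a lectin gene, rose by 3.77 ± 0.54 (adjusted p = 0.0160), and Lipa, the acid lipase of lysosomes, by 2.43 ± 0.35 (adjusted p = 0.0166). Spp1, the gene of osteopontin, was at 8.20 and 7.31 against -0.12 to 3.49 in the controls (6.08 ± 0.93, adjusted p = 0.0179). The members that fat cells also express did not pass: Cd36 was at -0.12 (adjusted p = 0.905), Lpl at -2.37 (adjusted p = 0.0840) and Apoe at 0.27 (adjusted p = 0.810). Called macrophage genes numbered between 0 (without M2) and 16 (without F539) when 1 library was left out, with 5 without M278 and 8 without M602. For lipid-associated genes the range was 0 (without M2) to 9 (without F539, of which 1 lower), with 2 without M278, 2 without M602 and 4 without 18f.

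T cell genes were higher as well, CD8 T cell genes among them. Of 16 T and NK cell genes tested 9 rose and 0 fell (median 2.54). The coreceptor gene Cd8a was at 4.46 and 4.21 in the anomalies and at 1.21, 1.37, 0.11 and 1.93 in F539, M5, M602 and M2, a rise of 3.18 ± 0.52 (adjusted p = 0.0199). Il7r, a survival receptor of lymphocytes, rose by 3.74 ± 0.66 (adjusted p = 0.0232), and Cd3e, of the T cell receptor complex, by 2.77 ± 0.59 (adjusted p = 0.0363). The helper coreceptor gene Cd4 was higher in both but spread wider, at 3.24 in 18f and 5.49 in M278 with controls at 0.22 to 3.03 (adjusted p = 0.118). The granule gene Nkg7 was at -1.53 in 18f and 4.39 in M278, below and above all controls (0.94 to 3.07), while Gzma, a granule protease gene, rose by 2.33 (adjusted p = 0.0367). Without 1 library between 0 (without M2 or M278) and 8 (without F539) T and NK genes were past the threshold, with 1 without 18f and 2 without M5 or M602.

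Some genes of matrix proteases, of their inhibitors and of fibrinolysis rose. Timp1, an inhibitor of matrix metalloproteinases (chromosome X, 20870166 to 20874735), had the smallest adjusted p of the named genes. It was at 6.20 in 18f and 5.61 in M278 and at 1.16, 1.47, 1.21 and 1.01 in F539, M5, M602 and M2. That is 25.9-fold, or 4.69 ± 0.28 (adjusted p = 0.00804), and its adjusted p ranged from 0.00513 to 0.0789 over 22 alternatives. The elastase gene Mmp12, made by macrophages, was at 10.36 and 10.75 and at 2.0, 5.93, 2.47 and 6.69 in the same controls, a rise of 6.28 ± 1.44 (adjusted p = 0.0435). Plaur, the urokinase receptor, rose by 2.83 ± 0.40 (adjusted p = 0.0160) and its ligand gene Plau by 1.90 ± 0.40 (adjusted p = 0.0363), and the aggrecanase gene Adamts4 rose by 2.79 ± 0.45 (adjusted p = 0.0192). In all, 7 of 21 genes of matrix proteases and their inhibitors rose and 0 fell (median 1.01), with 1 higher without M602 or M2, 2 without M278 and 3 without 18f. Of 31 extracellular matrix genes 3 rose (Spp1, Plod2 and Bgn), which is 9.68% against 6.45% of all genes tested, and 0 fell (median 0.51). Above every control lay 16 of the 31 in 18f and 9 in M278. In both anomalies 7 of the 31 did, where 18.9% of all genes tested did. Of 17 coagulation and fibrinolysis genes 3 rose and 1 fell, and without M278, M602 or M2 0 passed. F7, the gene of factor VII, rose by 4.32 ± 0.72 (adjusted p = 0.0208), and F3, the gene of tissue factor, fell by 1.77 on the log2 scale (adjusted p = 0.0302).

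A minority of heme and stress genes rose. Hmox1, the enzyme that breaks down heme, was at 10.12 in 18f and 9.0 in M278 and at 4.53, 6.32, 5.61 and 5.75 in F539, M5, M602 and M2. It rose 16-fold (4.0 ± 0.55, adjusted p = 0.0157), with no overlap between the groups. The iron exporter gene Slc40a1 rose by 2.78 (adjusted p = 0.0187), and Slc11a1, a metal transporter of phagosomes, by 3.20 ± 0.46 (adjusted p = 0.0160). The ferritin gene Ftl1 rose by 3.07 ± 0.36 (adjusted p = 0.0137), though its reads are uncertain because near-identical pseudogenes exist. In all, 4 of 16 heme and iron genes rose and 0 fell (median 0.52), while globin genes, which red cells carry, did not pass, with Hba-a2 at 8.17 and 6.33 against 4.15 to 6.30 (adjusted p = 0.155). Gdf15, a stress-induced hormone gene, was at 5.47 and 4.89 and at -0.31, 1.43, -0.25 and 1.19 in the same controls, a rise of 4.66 ± 0.62 (adjusted p = 0.0151). Sdf2l1, a chaperone partner of the endoplasmic reticulum, rose by 2.04 ± 0.19 (adjusted p = 0.0114), and Atf3, a stress transcription factor, by 3.44 ± 0.51 (adjusted p = 0.0170). Of 21 stress genes 5 rose and 0 fell (median 0.67), and all 21 were higher in 18f than in M278. Chac1, Trib3 and Asns, targets of the integrated stress response, were at 5.75, 6.40 and 6.95 in 18f and at 2.02, 3.42 and 4.12 in M278, with M278 within or below the controls.

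**Figure D2:**
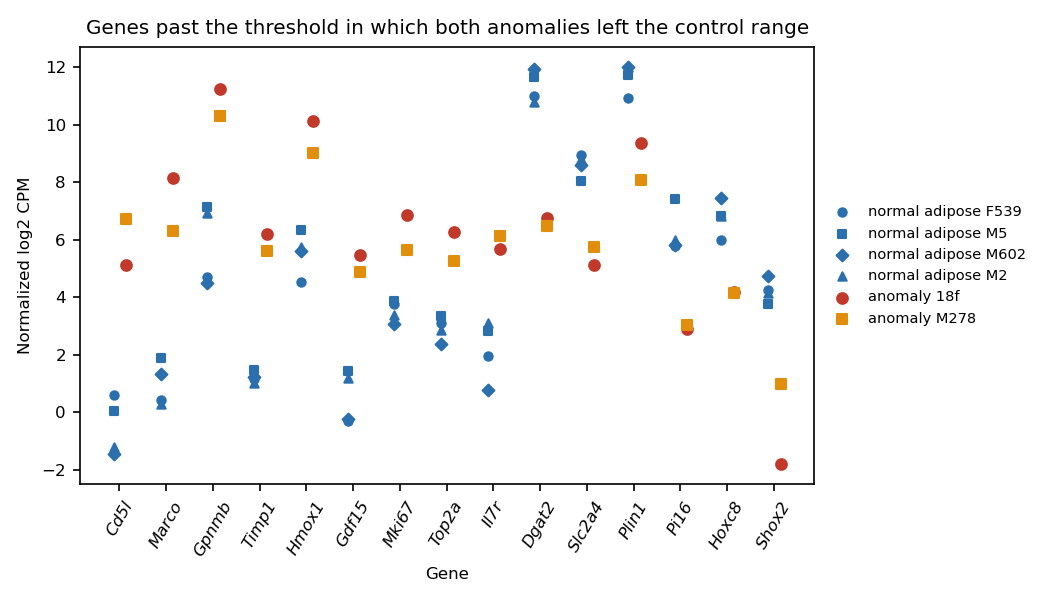
Normalized log2 CPM (vertical axis) of 15 genes past the threshold (horizontal axis) in each of the 6 libraries, with the 4 controls in blue and the anomalies in red (18f) and orange (M278). In each gene both anomalies lie outside the control range, for example Timp1 at 6.20 and 5.61 above controls at 1.01 to 1.47, and Dgat2 at 6.74 and 6.47 below controls at 10.79 to 11.94.

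Some chemokine and complement genes rose. Il1rn, which blocks interleukin 1 signaling, rose by 5.43 ± 0.69 (adjusted p = 0.0149), from 0.53 to 2.60 in the controls to 8.02 and 6.32. Ccl9 rose by 3.31 ± 0.57 and Ccl2, which draws monocytes, by 3.22 ± 0.62 (adjusted p = 0.0224 and 0.0292), both higher in 18f. Of 17 cytokine genes 6 rose and 0 fell (median 1.31). Among 18 complement genes 7 rose, among them the receptor gene C3ar1 (3.03, adjusted p = 0.0281) and the properdin gene Cfp (2.12, adjusted p = 0.0149). Cd59a, which shields cells from complement, fell by 3.56 (adjusted p = 0.0211), and Cfd, the adipsin gene that fat cells make, was at 11.40 and 11.23 against 12.74 to 14.02 (adjusted p = 0.0613).

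Median levels of fat cell genes were below the controls in both anomalies, and lower still in M278. Of 24 mature adipocyte genes 0 rose and 6 fell (median -2.30), with medians of -1.65 in 18f and -2.75 in M278. All 24 summed to 35900 CPM in 18f and 20300 in M278, against 46800 in F539 and 96100 to 116000 in the other controls. Slc2a4, the insulin-regulated glucose transporter (chromosome 11, 69942539 to 69948188), was at 5.10 and 5.73 in the anomalies and at 8.96, 8.04, 8.59 and 8.82 in F539, M5, M602 and M2. It fell 9.1-fold (-3.19 ± 0.33, adjusted p = 0.0124). Plin1, the coat protein of the lipid droplet, was at 9.37 and 8.07 against 10.92 to 12.01, a difference of -2.95 ± 0.53 (adjusted p = 0.0241). Other fat cell genes did not pass. Adipoq was at -2.37 (adjusted p = 0.0742), and Pparg, the transcription factor that makes a fat cell, was at 6.67 and 7.48 with controls at 6.93 to 8.08 (-0.53, adjusted p = 0.392). The leptin gene Lep was at 8.60 in 18f and 7.25 in M278, next to 8.04 in F539 and far below 11.30 to 13.05 in the other controls. Without 1 library between 0 (without M2) and 14 (without F539) adipocyte genes were lower past the threshold, with 1 without M278 or M602, 3 without M5 and 10 without 18f.

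Some enzymes of triglyceride synthesis fell. Dgat2, which adds the last fatty acid to a triglyceride (chromosome 7, 99153658 to 99182719), was at 6.74 in 18f and 6.47 in M278 and at 11.01, 11.67, 11.94 and 10.79 in F539, M5, M602 and M2. The fall was 26.9-fold (-4.75 ± 0.42, adjusted p = 0.0114), and the anomalies lay close together. Agpat2 fell by 3.36 and Gpat3 by 2.65, earlier steps of the same pathway (adjusted p = 0.0187 and 0.0483). Pnpla3, a lipase and acyltransferase that insulin induces, was at 2.99 and 4.86 against 7.97 to 10.04, and fell by 4.79 (adjusted p = 0.0185). Fasn, the fatty acid synthase, was at 7.39 and 6.61, at 15.10 in F539 and at 9.75 to 11.34 in the other controls, and did not pass (adjusted p = 0.0754). Srebf1 and Thrsp, which drive fatty acid synthesis, fell by 1.70 and 3.97 (adjusted p = 0.0495 for each). Of 21 genes of triglyceride and fatty acid synthesis 5 fell and 0 rose (median -2.41). Leaving out 1 library gave 0 (without M2) to 8 (without F539), with 1 without M278 or M602 and 3 without M5.

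Some genes by which fat cells hear insulin and make heat fell too. Of 20 insulin and adrenergic signaling genes 5 fell and 0 rose (median -1.64), and without M602 or M2 0 passed. Irs1, the docking protein of the insulin receptor, was at 4.42 and 3.09 against 5.47 to 6.41 (-2.27 ± 0.45, adjusted p = 0.0305), and Ffar4, a fatty acid receptor, fell by 2.53 (adjusted p = 0.0244). Among 11 thermogenic genes 4 fell and 0 rose, and without M602 or M2 0 passed. The falls included the mitochondrial coactivator gene Ppargc1a (-3.14 ± 0.45, adjusted p = 0.0163), Prdm16 (-1.99 ± 0.32, adjusted p = 0.0198) and the proton channel gene Otop1 (-5.44 ± 0.86, adjusted p = 0.0185). Ucp1, the uncoupling protein of brown fat, was below the filter, with -2.93 in 18f, -2.85 in M278 and 0.68 to 3.27 in the controls. In the respiratory chain 3 of 30 fell (10%, against 5.47% of all genes tested) and 0 rose (median -0.81), and without M278, M602 or M2 0 passed. All 30 were higher in 18f than in M278. Sdha fell by 1.45 ± 0.33 (adjusted p = 0.0434).

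Some of the 12 largest falls of single genes were outside these lists. Alb, the albumin gene, was at 0.23 in 18f and -2.85 in M278 and at 5.59, 4.46, 6.23 and 6.06 in F539, M5, M602 and M2 (-6.89 ± 0.91, adjusted p = 0.0149). Vat1l was at -0.37 and -0.46 against 4.27 to 5.48 (-5.44 ± 0.37, adjusted p = 0.0114), with the smallest SE of the 12 largest falls. Trhde, an enzyme that degrades thyrotropin-releasing hormone, and Grb14, an adaptor that dampens insulin receptor signaling, fell by 6.06 and 5.26 (adjusted p = 0.0149 for each). The rule for the 12 took only falls in which both anomalies lay below the lowest control.

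Some progenitor genes fell, while genes of vessel growth and support passed at shares near those of all genes tested. Pi16, a marker of early adipose progenitors (chromosome 17, 29317680 to 29330593), was at 2.90 and 3.02 in the anomalies and at 5.79, 7.43, 5.80 and 5.97 in F539, M5, M602 and M2. It fell by 3.29 (adjusted p = 0.0175) and the stromal matrix gene Dpt by 3.16 (adjusted p = 0.0239), and with these 6 of 19 fibroblast and progenitor genes fell and 0 rose (median -0.62), while 3 lay above every control in both anomalies. The falls numbered 0 without M278 or M2, 1 without M602, 2 without M5 and 4 without 18f. The general fibroblast genes Dcn, Lum and Pdgfra were at 0.32, 0.40 and 0.54 (adjusted p from 0.416 to 0.561), so the list did not move as one. Of 23 genes of angiogenic sprouting and VEGF signaling 2 fell (8.7%, against 5.47% of all genes tested) and 1 rose (4.35%, against 6.45%). Angpt1, a ligand that steadies vessels, was at 1.42 and 1.68 against 3.64 to 4.86 (-2.85 ± 0.39, adjusted p = 0.0155), and Vegfb at 5.54 and 4.92 against 6.97 to 7.68 (-2.09 ± 0.29, adjusted p = 0.0157). Vegfa, the main endothelial growth factor, was lower by more in M278 than in 18f, at 5.21 and 7.71 with controls at 8.30 to 9.22, and did not pass (adjusted p = 0.0899). Acta2, the actin of smooth muscle, fell by 1.39 (adjusted p = 0.0453), as 1 of 17 pericyte and smooth muscle genes (5.88%). The chemokine receptor gene Cxcr4 rose by 2.73 ± 0.36 (adjusted p = 0.0149), and the leukocyte adhesion gene Vcam1 by 2.84 ± 0.58 (adjusted p = 0.0330).

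The title word is shared, but several genes that tell fat pads apart separated the groups. Wt1, a transcription factor gene of mesothelium and abdominal fat, had 781 reads in 18f and 220 in M278, and 0 to 2 reads in each control. Msln, the mesothelin gene, had 765 and 257 reads against 0 to 5, and Upk3b, a surface gene of mesothelium, had 1650 and 346 against 1 to 7. In log2 CPM both anomalies stood at 3.84 or more in Wt1, 4.07 or more in Msln and 4.50 or more in Upk3b, and no control was above -1.14. These genes are under the filter on the mean and have no test, and they were singled out after their values were seen. Lrrn4, another mesothelial gene, was tested and rose by 2.61 ± 0.49 (adjusted p = 0.0276), at 4.09 and 3.87 against 1.27, 0.61, 1.28 and 2.33 in F539, M5, M602 and M2. Keratin genes shared by mesothelium and other epithelia were highest in F539, with Krt19 at 8.09 there, 3.27 in 18f and 1.90 in M278. Of 5 mesothelium genes tested 2 rose (40%, against 6.45% of all genes tested) and 0 fell. The 2 were Lrrn4 and Slc9a3r1 (1.76, adjusted p = 0.0426). This count depends on single controls, with 0 without M602 or M2, 1 without M5 and 4 without F539. The whole list summed to 309 CPM in 18f and 330 in M278, and to 1030 in F539 and 96.8 to 163 in the other controls. In the subcutaneous-titled libraries it summed to 129 to 559 CPM, so the list as a whole did not separate the groups.

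Position genes known from subcutaneous fat went the other way. Shox2 (chromosome 3, 66971727 to 66981771) was at -1.81 in 18f and 0.98 in M278 and at 4.26, 3.75, 4.75 and 4.15 in F539, M5, M602 and M2. It fell 25-fold (-4.65 ± 0.76, adjusted p = 0.0198), with both anomalies far below the controls. Tbx15 was at -1.53 and 2.40 against 4.10 to 4.76 (-4.05, adjusted p = 0.0506), and En1, below the filter, had 10 and 0 reads against 23 to 98. Hoxc8 (chromosome 15, 102990607 to 102994111) was at 4.19 and 4.16 and at 6.00, 6.82, 7.44 and 6.81 in the same controls (-2.59 ± 0.38, adjusted p = 0.0163). Hoxc9 fell by 1.96, Hoxc6 by 1.19 and Hoxa7 by 0.80 (adjusted p from 0.0353 to 0.0482), and in all 6 of 22 depot position genes fell and 0 rose (median -0.82). The list did not move as one, since 4 members lay above every control in both anomalies and 11 below. The falls numbered 0 without M2, 2 without M602, 3 without M5 and 6 without F539, where 1 rose. The anomalies differed in the more posterior genes. Hoxa10 and Hoxc10 were at 3.89 and 3.71 in 18f, just below the controls (4.02 to 5.19 and 4.25 to 4.68), and at -0.92 and 0.82 in M278. Hoxa9 was at 4.02 in 18f, within the controls, and at 0.07 in M278. The part that the fat pad of origin has in the other differences was not tested, and with these samples pad and lesion cannot be told apart.

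In the 6 libraries of subcutaneous-titled anomalies the same genes took other values. Upk3b was at 1.21 or less and Lrrn4 at 0.84 or less in every one of them, below both fat-titled anomalies. Wt1 and Msln had no reads in 4 of the 6 in each case, and were at 2.92 and 2.20 in the highest, M610. Tbx15 was at 3.03 to 5.03, near the controls. Shox2 was at 1.90 to 4.01, above both fat-titled anomalies. In all of these libraries except M605 it was nevertheless below every control (3.75 to 4.75). Hoxc8 did not separate the anomaly kinds, at 1.09 to 4.56. Other mesothelial genes under the filter did not follow Upk3b. Upk1b was at 3.87 in 18f, 3.34 in M278 and 6.80 in F578, and Bnc1 at 2.99 and 2.65 in the fat-titled anomalies and at 4.28 and 3.67 in both pieces of M566.

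**Figure D3:**
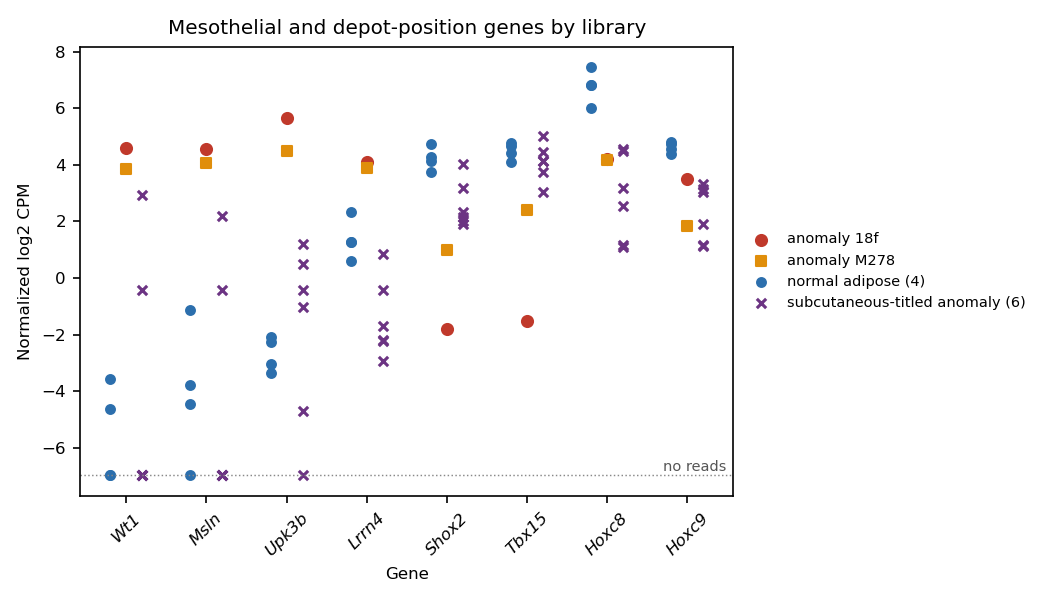
Normalized log2 CPM (vertical axis) of mesothelial and position genes (horizontal axis) in the 12 libraries, with 4 controls in blue, 18f in red, M278 in orange and 6 subcutaneous-titled anomaly libraries as purple crosses. The dotted line at -6.97 is the value of a gene with no reads, and both fat-titled anomalies stand above all other libraries in Wt1, Msln, Upk3b and Lrrn4.

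Endothelial genes did not move together in the anomalies. Of 23 pan-endothelial genes 0 passed in either direction (median difference 0.88), and the median above the control mean was 0.05 in 18f and 1.86 in M278. M278 lay above every control in 20 of the 23 and 18f in 2. Cdh5, whose promoter drives Cre (chromosome 8, 104101625 to 104144511), was at 8.36 in 18f and 10.60 in M278 and at 8.31, 9.32, 8.60 and 8.16 in F539, M5, M602 and M2. Only M278 was outside the controls, and the difference of 0.88 ± 0.67 (adjusted p = 0.412) turned to -0.24 without M278 and was 2.0 without 18f. The list summed to 2940 CPM in 18f, within the 2170 to 4190 of the controls, and to 9140 in M278. Vwf, made by larger vessels, ran the other way, at 7.95 in 18f and 5.79 in M278 with controls at 5.84 to 7.78. Plvap, of fenestrated vessels, and Eng, a coreceptor of the bone morphogenetic protein pathway, had the smallest adjusted p of the list (0.107 and 0.165).

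The same order held for arterial and pericyte genes. In the arterial and Notch list medians were -0.68 in 18f and 1.21 in M278. Dll4, the Notch ligand of sprouting and arterial cells, was at 4.22 in 18f, below all controls (4.89 to 6.11), and at 7.20 in M278, above them. Efnb2, Gja4, Jag2 and Nrarp lay on opposite sides of the controls in the same way, and 1 of 18 genes (5.56%), Cxcr4, passed. Pericyte and smooth muscle genes had medians of -1.20 and 0.57, with the pericyte gene Rgs5 at 5.11 in 18f and 9.39 in M278 against 7.86 to 9.33. Kcnj8, a potassium channel gene of pericytes, was at 3.70 and 7.16 against 4.19 to 5.57. Genes mutated in human vascular anomalies showed 0 of 26 past the threshold (median 0.14), with Pik3ca at 6.44 and 6.32 against 6.12 to 6.69. Among 20 RAS and ERK output genes 1 rose (5%, against 6.45% of all genes tested) and 0 fell. The 1 that rose was the phosphatase gene Dusp5 (3.23 ± 0.59, adjusted p = 0.0261).

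Interferon-induced genes were high in M278. All 24 members lay above every control in M278 and 5 in 18f, with medians of 2.74 and 0.28 above the control mean. Isg15, a ubiquitin-like modifier, was at 6.18 in M278 and 2.88 in 18f, and at 2.04, 2.43, 2.16 and 2.35 in F539, M5, M602 and M2 (2.29, adjusted p = 0.125). Irf7, a transcription factor that amplifies the response, was at 8.39 in M278 and at 5.30 in 18f, which lies within the controls (4.50 to 5.39). Only Oas1a, Oas2 and Oasl2, antiviral sensor genes with close paralogs, passed, and 0 fell. Oas1a was at 4.01 and 5.72 and at 1.87, 1.62, 1.74 and 1.74 in the same controls (3.12 ± 0.47, adjusted p = 0.0176). Without 18f 18 members were past the threshold, without M278 1, and without M2 or M602 0. A match to the core of the interferon-stimulated response element, which interferon-activated factors bind, was found on either strand in 10 of 19 promoters of this list (52.6%) and in 3.14% of those of the genes tested, or 3.49% of all. That of the gene with the smallest adjusted p is shown (RefSeq, GRCm38.p6, minus strand), with overlapping matches in capitals.
Oas1a promoter, chr5:120907476-120907775: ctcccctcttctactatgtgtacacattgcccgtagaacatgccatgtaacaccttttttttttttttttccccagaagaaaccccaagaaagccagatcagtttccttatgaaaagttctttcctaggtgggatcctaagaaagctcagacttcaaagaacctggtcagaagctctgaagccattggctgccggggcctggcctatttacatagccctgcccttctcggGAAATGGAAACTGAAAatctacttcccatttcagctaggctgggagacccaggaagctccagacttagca

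MHC class II and B cell genes split the anomalies further. H2-Aa, a chain of the class II molecule, was at 6.13 in 18f and 10.91 in M278 and at 8.23, 8.40, 8.09 and 8.96 in F539, M5, M602 and M2. 18f lay below and M278 above all controls, and Cd74, H2-Ab1, H2-Eb1 and their activator gene Ciita did the same. All 17 antigen presentation genes tested were higher in M278 than in 18f and above every control in M278. Only Itgax, an integrin of dendritic cells and macrophages, passed (3.08 ± 0.71, adjusted p = 0.0443), and it was above the controls in both anomalies. The B and plasma cell list had medians of -1.23 in 18f and 3.0 in M278, with 0 of 13 past the threshold, and Cd79a, of the B cell receptor, was at -0.62 and 4.09 against 0.60 to 1.56. Immunoglobulin genes were high in F539, with Jchain at 6.74 there and 6.51 in M278.

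Skeletal muscle genes, which fat cells do not make, were low in 18f, which lay below every control in 15 of 16 of them. The list summed to 89.4 CPM in 18f, 5080 in M278 and 1410 to 3430 in the controls. Ckm, the muscle creatine kinase, was at 0.65 in 18f and 8.61 in M278 and at 5.76, 7.71, 7.82 and 7.90 in F539, M5, M602 and M2, so the anomalies lay on opposite sides of the controls. Of 16 muscle genes 0 passed. Endothelial and interferon genes were higher in M278 than in 18f as well, and the part of muscle in those differences was not tested. Among named genes, the largest difference in each direction was in a sex-linked gene. These were Xist, at 9.23 in 18f and 1.11 in M278, and the Y-linked gene Uty, with 1 and 281 reads. The part of sex in the differences between 18f and M278 was not tested. Apart from Xist, the genes highest in 18f over M278 were of other kinds. They included the imprinted genes Zim1 (7.04 and -0.34, controls 3.0 to 5.98) and Peg3 (9.60 and 5.01, controls 6.08 to 9.80), Pdk4, which spares glucose (9.22 and 4.29, controls 7.04 to 7.94), and Vnn1, a pantetheinase (6.83 and 0.93, controls 1.83 to 5.13).

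Over all genes tested, the median distance between 18f and M278 was 0.43, and between pairs of controls it ran from 0.21 to 0.44 over 6 pairs. The anomalies were more than 2 log2 units apart in 775 genes, with 18f higher in 333 and M278 in 442. Pairs of controls were that far apart in 43 to 89 genes without F539 and in 498 to 698 with it.

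The other lists held few called genes. Of 23 hypoxia and glycolysis genes 2 rose and 2 fell (8.7% each way), where 6.45% and 5.47% of all genes tested did. Among them were the lactate exporter gene Slc16a3 (1.54, adjusted p = 0.0227) and the hexokinase gene Hk2 (-2.01, adjusted p = 0.0332). Of 20 immediate early genes 3 rose (15%) and 1 fell (5%). Of 13 venous and activated endothelial genes 2 rose (15.4%) and 0 fell, namely Vcam1 and the adhesion molecule gene Flrt2 (2.64, adjusted p = 0.0185). Of 9 lymphatic endothelial genes 0 passed, and Pdpn, which lymphatic vessels and fibroblasts share, was at 5.69 and 4.46 against 2.61 to 3.80 (adjusted p = 0.0533). Of 5 platelet genes 1 rose (20%), the integrin gene Itgb3 (2.08, adjusted p = 0.0237), and of 4 lymph node stroma genes 2 fell (50%), Fcrls and Enpp2. In the erythroid, neutrophil, mast cell, keratinocyte, gland, nerve and neuroendocrine lists 0 passed. Large rises outside the lists included Col6a5, a collagen chain (5.83 ± 1.29, adjusted p = 0.0409), Myrf, a membrane-bound transcription factor (5.19 ± 0.54, adjusted p = 0.0124), Rgs1, a regulator of G protein signaling in lymphocytes (5.11 ± 1.06, adjusted p = 0.0343), and Clec4d, a lectin of myeloid cells (5.07 ± 0.67, adjusted p = 0.0149).

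**Figure D4:**
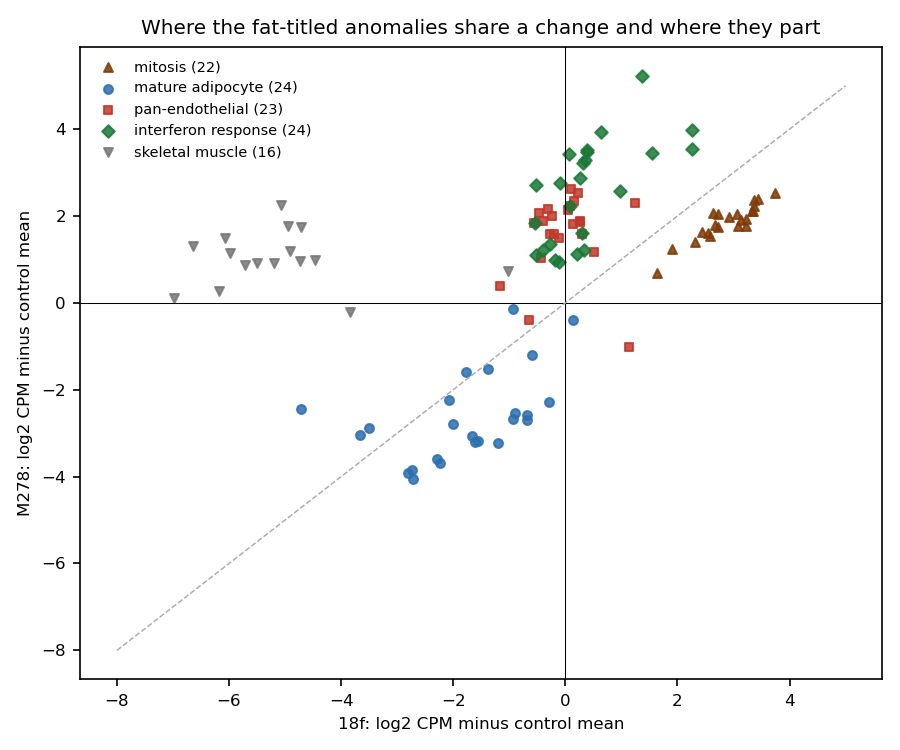
Each point is 1 member of 5 gene lists, with its log2 CPM minus the control mean in 18f on the horizontal and in M278 on the vertical axis. Mitosis genes lie above 0 in both and mature adipocyte genes mostly below 0 in both, pan-endothelial and interferon genes lie mostly near 0 in 18f and above it in M278 (medians 1.86 and 2.74), and muscle genes lie mostly far to the left.

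Fat-titled and subcutaneous-titled anomalies were compared to show where the fat-titled ones differ. With 2 against 5 animals in a fit of all 11 animals, 5 of 12955 genes passed (0.0386%), 3 higher and 2 lower, and 1921 had an unadjusted p under 0.05. M605 carries a control name in 1 header line of the deposited table and its anomaly name in another and in the sample labels, which were followed, and without M605 0 genes passed. The design text counts 8 anomaly animals and the titles name 7. M580, 1 of the 5 subcutaneous-titled animals, had 953994 recovered reads, against 10337258 or more in every other library. In M580 1 read was worth 0.742 CPM, and without M580 2 genes were higher and 3 lower. The 2 fat-titled libraries are those used above, so the comparisons are not independent. Prdx1, a peroxide-reducing enzyme (chromosome 4, 116685544 to 116700822), was at 9.0 in 18f and 9.21 in M278 and at 7.36, 7.56, 7.29, 7.60 and 7.29 in M580, M566, F578, M605 and M610, with controls at 7.20 to 7.62. The difference was 1.68 ± 0.18 (adjusted p = 0.0372), and the fat-titled anomalies stood above both other groups. Srxn1, the enzyme that repairs oxidized peroxiredoxin (chromosome 2, 152105516 to 152111376), was at 7.78 and 7.18 and at 5.59, 5.24, 5.96, 5.61 and 6.00 in the same 5 animals, with controls at 5.40 to 5.77. Its difference was 1.80 ± 0.24 (adjusted p = 0.0397). The values of M566 are means of its leg and arm pieces. Those were at 8.06 and 7.06 in Prdx1 and at 5.79 and 4.69 in Srxn1. Against the controls both genes also rose, by 1.73 ± 0.23 and 1.85 ± 0.22 (adjusted p = 0.0149 and 0.0137). Of their partners in antioxidant defense, Gclm rose against the controls by 0.88 (adjusted p = 0.0310), and Txnrd1 was at 0.67 (adjusted p = 0.0815). Nqo1 was at 2.98 and 2.86 with controls at 3.24 to 4.12, below them (adjusted p = 0.286). Slc7a11, under the filter on the mean and without a test, was at 3.85 and 4.06 against -1.80 to 0.67 in the controls. In the subcutaneous-titled libraries it was at 1.38 to 5.98. Others of the set went down or did not pass. Gsta4, a glutathione transferase gene, was at 1.81 and 1.24 against 5.37 to 6.41 and fell by 4.48 (adjusted p = 0.0114), and Gclc and Gstm1 were at -0.25 and -0.84 (adjusted p = 0.581 and 0.274).

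Vwa3a, whose protein holds a von Willebrand factor A domain, was at 3.98 and 4.32 in the fat-titled anomalies and 2.60 to 3.66 in the controls. In the 5 subcutaneous-titled animals it was at -0.41 to 1.53 (difference 3.53 ± 0.47, adjusted p = 0.0397). Col23a1, a membrane collagen, was at 0.76 and 1.32 against 3.23 to 4.08 in those animals, with controls at 3.28 to 4.47 (-2.72 ± 0.35, adjusted p = 0.0397). Eif3j1, a translation initiation factor gene, was at 0.23 and -0.34 against 1.90 to 2.49, with controls at 2.32 to 2.96 (-2.38 ± 0.30, adjusted p = 0.0397). Single pieces of M566 lay outside these ranges. Its leg and arm were at -0.68 and 2.11 in Vwa3a, 2.88 and 4.96 in Col23a1 and 2.66 and 2.30 in Eif3j1. Eif3j1 is uncertain because of its close copy Eif3j2, which was at 2.80 and 1.74 in the fat-titled anomalies and at 0.13 or less in the other 10 libraries. Summed, the copies came to 8.14 CPM in 18f and 4.11 in M278, 5.25 to 8 in the controls and 4.45 to 6.70 in the subcutaneous-titled libraries. Mature adipocyte genes were higher in the fat-titled than in the subcutaneous-titled anomalies by a median of 2.88, but 0 of 24 passed, and mitosis genes were at a median of -0.04. Without the controls in the fit, with the pieces of M566 separate, or without F578 or M605, 0 genes passed in either direction, without M566 3 and 0, and without M278 117 were higher and 94 lower.

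**Figure D5:**
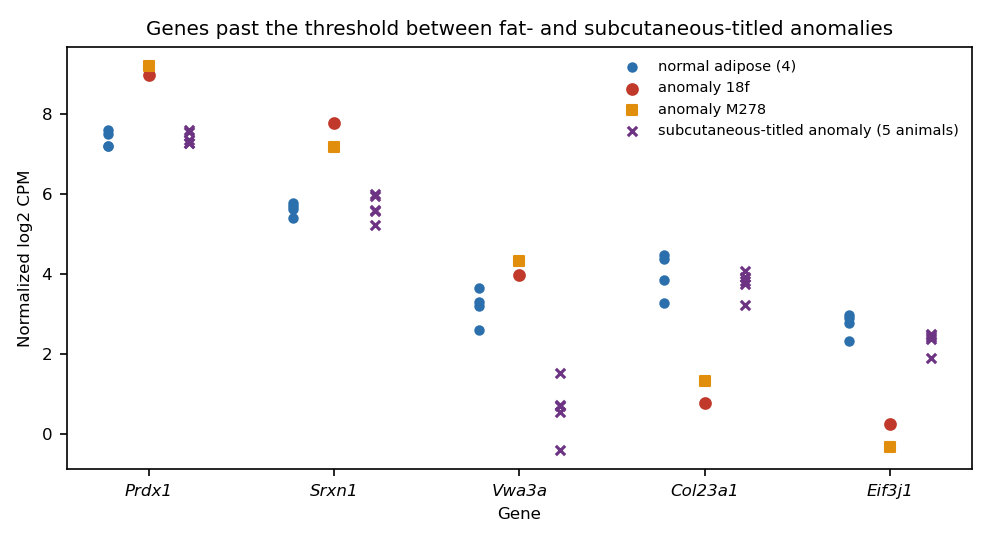
Normalized log2 CPM (vertical axis) of the 5 genes past the threshold between the anomaly kinds (horizontal axis), with 4 controls in blue, 18f in red, M278 in orange and 5 subcutaneous-titled animals as purple crosses. In Prdx1 and Srxn1 the fat-titled anomalies stand above all other animals, at 7.18 or more in Srxn1, and in Col23a1 and Eif3j1 below them.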

How the data were processed

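Poly-A RNA of whole tissue was sequenced, per the labels' protocols. The authors deposited normalized log2 CPM values (reads of a gene scaled to library size) for 32774 genes, and the submitters' processing notes name STAR, limma, mm10 and GRCm38. The normalization, prior and strand setting are not given in the sources used here, so reads of a gene and its antisense partner cannot be told apart, and close paralogs are uncertain. The values step by whole reads above a prior of 0.00797 CPM (floor -6.97). All came out whole within 0.1, which gave the reads per library.

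Genes whose mean level reached 1 log2 CPM were fitted with limma 3.58.1 in R 4.3.3 (statmod 1.5.0), with a mean trend, robust variances, two-sided tests and p-values adjusted by Benjamini-Hochberg. Genes under 0.05 were called, and all adjusted p printed here are limma's. Fits were tested on simulated data. The comparison with subcutaneous-titled anomalies used all 11 animals, with both pieces of M566 averaged. Named genes were the 12 largest rises and the 12 largest falls past the threshold with both anomalies outside the controls, up to 3 per direction in each list by adjusted p (the 2 smallest where 0 passed), Cdh5, Adipoq, Plin1, Pparg, Vegfa and Mki67, and the 8 largest differences between 18f and M278 in each direction. The members, lists and naming rule were chosen with earlier results of these data known. Alternatives changed the filter, scaling, test, threshold and libraries included. Some named genes are not reported here.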

Additional observations from a re-analysis of the deposited data

Results flagged for a closer look

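Within 143 sets of 4 control values and 9 sets of values of subcutaneous-titled animals, the highest or lowest value was set against the others. Chance marks about 1 in 20 such sets. Control F539 stood apart in S100a9 (4.61), in the epithelial genes Krt10 (8.04) and Muc1 (4.79), in Xist (9.38), in the Y-linked genes Kdm5d (-3.37) and Uty (-6.97), and in the muscle genes Ckm (5.76), Atp2a1 (7.07), Myh4 (2.18) and Mybpc2 (2.83), all in log2 CPM. Other control values that stood apart on the same scale were Ptger3 in M2 (5.72), Pi16 (7.43) and Akt1 (7.67) in M5, and Mcm3 (3.68) and Ftl1 (0.88) in M602. Among subcutaneous-titled animals, M580 was low in Eif3j1 at 1.90, a value that rests on 5 reads.

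Fat-titled minus subcutaneous-titled anomalies differed by the limma test in Eif3j1 (-2.38), Srxn1 (1.80), Prdx1 (1.68), Vwa3a (3.53) and Col23a1 (-2.72), as log2 differences.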

How the results depend on the processing

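Between fat-titled anomalies and controls, no filter on low values gave 498 higher and 243 lower, library totals 1515 higher, and a threshold of 0.10 gave 1388 and 1414. Leaving out 1 library gave 1 to 1048 higher and 5 to 1381 lower. With all 11 animals in 3 groups, where leaving out a library was added after seeing the data, the range was 83 to 909 higher and 59 to 924 lower: 485 higher without 18f, 83 and 59 without M278, 274 and 133 without M602, 381 and 187 without M2, and 340 lower without M5. Mb was at -6.97 without M278 and turned to 0.11 without 18f, and Cdh5 to -0.24 without M278, in both fits. Of the 99 named genes past the threshold 0 turned direction. The call was lost in 98 without M2, 84 with no filter, 66 without M278, 61 without M602, 28 without M5, 26 without 18f and 9 with limma-voom on the recovered reads.

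Between the anomaly kinds, separate pieces of M566 gave 0 higher and 0 lower, as did leaving the controls out of the fit. A filter of 1 CPM in 2 animals gave 5 and 5, log2(CPM + 1) gave 0 lower, and a threshold of 0.10 gave 12 and 6. Leaving out 1 animal gave 0 to 117 higher and 0 to 94 lower. The cause of these shifts was not tested. Without 18f or M278 the lone anomaly is assumed to vary like the other libraries. No paired analysis was possible because no animal is in more than 1 group.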
